A study of Mus musculus with 6 samples.

Results

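The brush border hydrolases described here are 9 genes, taken by symbol from the deposited table of gene RPKM (reads per kilobase of exon, scaled to library size): Sis, Lct, Treh, Alpi, Anpep, Enpep, Dpp4, Mep1a and Mep1b. All 9 were found among the 40769 gene identifiers of the table, and all 9 passed the filter on low values, for which 2 or more of the 6 libraries had to reach an RPKM of 0.5, which left 16314 genes. Each was read at considerable depth, with between 276 and 98105 recovered reads in a library.

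The enzymes these genes encode sit in the apical membrane of absorptive enterocytes, the brush border, with their catalytic parts facing the gut lumen. They carry out the last steps of digestion, in which disaccharides, short peptides and phosphate esters are cut to units that transporters of the same membrane take up. In the mouse, lactase is the main disaccharidase before weaning, and sucrase-isomaltase and trehalase take over when solid food is eaten.

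The study asked how gene expression in epithelial cultures of mouse jejunum (enteroids) differs when PLAGL2, a transcription factor with zinc fingers, is over-expressed. All lines came from C57BL/6 mice, grew in serum-free ENR medium and carried a piggyBac transposon, which inserts into the genome, for constitutive expression of GFP or of PLAGL2. The control was a GFP line, and the PLAGL2 lines were clone 1, whose PLAGL2 level is labelled low, and clone 3, whose level is labelled high. Each line gave 1 library at passage 5 and 1 at passage 7. The sources used here give no untransfected line, no age or sex of the mice and no promoter of the transposon. A line is a single culture sampled at a pair of passages, so p-values measure the spread between passages or between these lines, not between independent transfections. A clone's difference from GFP cannot be told apart from what sets 1 culture apart from another.

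Recovered library totals lay between 13779306 and 17319950 reads, and in each line the passage 7 library was the shallower one. Epithelial genes were high in all libraries, with Krt19 at 740.3 to 921 RPKM, Krt8 at 430.5 to 560.2 and Epcam at 478 to 554. The summed level of the ileal markers Fabp6 and Slc10a2 was 0.509 to 1.08 RPKM, and that of 4 gastric markers was at most 0.316. Of 10 non-epithelial markers, summed at 8.23 to 16.2 RPKM, Vim and Cd68 made up most, and Lum was listed at 0. Plagl2 was at 22.8 and 23.1 RPKM in GFP (passages 5 and 7), 30.9 and 26.5 in clone 1, and 37.2 and 37.2 in clone 3, in the order of the labels. These values count only reads assigned to the mouse gene, and the sources used here do not give the species of the introduced PLAGL2.

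The promoters of Lct, Sis, Alpi and Enpep are shown because these genes gave the 4 patterns described further on: the largest clone difference (Lct), a level close to that of GFP in both clones (Sis), a higher (Alpi) and a lower level (Enpep) in both clones. Each run is 300 bases, from 250 before to 50 after the RefSeq start in GRCm38.p6, 5′ to 3′ on the minus strand on which all 4 genes lie. Capitals mark the CDX core TTTAT, the GATA motif AGATAA, the HNF4 half-site CAAAGT, the HNF1 half-site GTTAAT and the TATA box TATAAA, on either strand, overlaps included.
Lct, chr1:128328269-128328568: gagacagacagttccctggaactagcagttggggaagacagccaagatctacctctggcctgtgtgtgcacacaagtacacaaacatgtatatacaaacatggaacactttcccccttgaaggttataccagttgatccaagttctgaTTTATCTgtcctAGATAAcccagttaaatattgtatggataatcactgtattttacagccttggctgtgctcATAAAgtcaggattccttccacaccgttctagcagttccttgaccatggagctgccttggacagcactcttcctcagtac
Sis, chr3:72967814-72968113: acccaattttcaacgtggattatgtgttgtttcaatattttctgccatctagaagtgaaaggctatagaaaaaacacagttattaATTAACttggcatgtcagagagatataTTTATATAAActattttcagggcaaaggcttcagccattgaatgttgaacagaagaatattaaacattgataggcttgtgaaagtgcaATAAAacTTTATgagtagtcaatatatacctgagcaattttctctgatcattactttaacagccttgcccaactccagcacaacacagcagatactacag
Alpi, chr1:87101557-87101856: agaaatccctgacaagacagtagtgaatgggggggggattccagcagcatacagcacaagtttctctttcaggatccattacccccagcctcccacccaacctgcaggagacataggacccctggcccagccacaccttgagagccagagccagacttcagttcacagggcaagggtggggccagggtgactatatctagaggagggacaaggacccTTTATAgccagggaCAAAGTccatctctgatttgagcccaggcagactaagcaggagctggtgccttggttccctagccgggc
Enpep, chr3:129332700-129332999: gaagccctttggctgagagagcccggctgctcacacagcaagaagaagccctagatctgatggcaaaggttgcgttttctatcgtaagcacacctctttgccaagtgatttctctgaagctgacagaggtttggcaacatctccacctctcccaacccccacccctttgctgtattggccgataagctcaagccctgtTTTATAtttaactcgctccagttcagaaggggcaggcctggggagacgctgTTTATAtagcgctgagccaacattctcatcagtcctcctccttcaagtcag

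RefSeq promoter windows were scanned for 8 of the 9 genes. Mep1b was left out of the scan, since none of the 9 genes was taken from chr18. The CDX core stood in 6 of the 8 windows and in 40.0% of all 32851 promoter windows of this length. The TATA box stood in 4 of the 8 (Alpi, Dpp4, Enpep and Sis) and in 13.6% of all. The places differed: the match ended 28 bases before the start in Alpi, 222 in Dpp4 and 47 in Enpep. In Sis the matches ended 133 and 129 bases before it, and a further Enpep match spanned the start. Every TATA match in these 4 windows overlapped a CDX core match, since the letters are shared. AGATAA stood in the windows of Dpp4 and Lct and in 11.2% of all, and CAAAGT in those of Alpi, Mep1a and Treh and in 14.4% of all. GTTAAT was found in the Sis window only, and in 7.10% of all. In the Lct window the GATA matches ended 85 and 96 bases before the start, the farther one overlapping a CDX core, and a further CDX core ended 26 bases before it. A motif of the PLAG type, GGGGC or GAGGC followed after 6 to 8 bases by GGG, was found in 22.7% of all windows and, of these 8, in that of Enpep only, from 24 bases before the start. That match is not in capitals. Matches describe letters in these windows and do not show binding.

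The hydrolases differed widely in level, and Sis led in every library. Sis (ENSMUSG00000027790, chr3:72888557-72967863, minus strand, mm10), which encodes the enzyme that splits sucrose and isomaltose, was at 917 and 374 RPKM in GFP at passages 5 and 7. It was at 837 and 341 in clone 1 and at 867 and 432 in clone 3. The 3 passage 5 libraries were the high ones, and no line was highest at both passages. Sis made up 49.98% to 62.1% of the summed RPKM of the 9 genes.

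Lct (ENSMUSG00000026354, chr1:128284756-128328318, minus strand) encodes lactase, which splits milk sugar. It was at 8.70 and 3.13 RPKM in GFP at passages 5 and 7, at 42.2 and 17.6 in clone 1 and at 67.8 and 24.6 in clone 3. All 4 PLAGL2 libraries lay above both GFP libraries, so the groups did not overlap, which held for 7.96% of all genes tested. Treh (ENSMUSG00000032098, chr9:44673233-44686305, plus strand) encodes trehalase, which splits the sugar of insects and fungi. Its RPKM was 59.6 and 25.4 in GFP, 37.5 and 20.0 in clone 1 and 42.0 and 20.98 in clone 3. GFP was the highest line at each passage.

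Alpi (ENSMUSG00000079440, chr1:87098002-87101606, minus strand) encodes intestinal alkaline phosphatase, which removes phosphate from nutrients and from bacterial lipopolysaccharide. It was at 72.7 and 34.6 RPKM in GFP, 120.0 and 49.5 in clone 1 and 115 and 53.1 in clone 3. Both clones lay above GFP at each passage, but their passage 7 libraries lay below GFP at passage 5. Of the 50-base windows of its transcripts, 2.40% also occurred in other genes, most often in its paralog Akp3.

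Among the peptidases, Anpep (ENSMUSG00000039062, chr7:79821803-79861059, minus strand) was highest. It encodes aminopeptidase N, which removes neutral residues from the start of peptides. Its RPKM was 198 and 112 in GFP, 208 and 155 in clone 1 and 277 and 145 in clone 3. Clone 3 was highest at passage 5 and clone 1 at passage 7. Enpep (ENSMUSG00000028024, chr3:129269175-129332720, minus strand) encodes aminopeptidase A, which removes acidic residues. It was at 82.2 and 35.9 RPKM in GFP, 48.0 and 25.2 in clone 1 and 56.4 and 26.8 in clone 3, with GFP highest at each passage. Dpp4 (ENSMUSG00000035000, chr2:62330073-62412231, minus strand) encodes dipeptidyl peptidase 4, which cuts after proline or alanine and also inactivates incretin hormones. It was at 38.1 and 27.4 RPKM in GFP, 32.6 and 26.0 in clone 1 and 31.7 and 27.5 in clone 3. The passage 7 libraries of the 3 lines were close together.

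Mep1a and Mep1b encode the subunits of meprin, a metalloprotease of the brush border and its secreted form. Mep1a (ENSMUSG00000023914, chr17:43474324-43502812, minus strand) was at 15.1 and 10.3 RPKM in GFP, 16.2 and 13.0 in clone 1 and 25.7 and 17.3 in clone 3. Clone 3 was the highest line at each passage. Mep1b (ENSMUSG00000024313, chr18:21061923-21100199, plus strand) was at 85.9 and 43.3 RPKM in GFP, 52.9 and 35.0 in clone 1 and 52.3 and 21.7 in clone 3. GFP was the highest line at each passage, so the subunit genes did not lie in the same order across the lines.

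By mean RPKM over the 6 libraries, a level per length, the order was Sis (628), Anpep (182), Alpi (74.2), Mep1b (48.5), Enpep (45.8), Treh (34.3), Dpp4 (30.5), Lct (27.3) and Mep1a (16.3). Sis ranked 1st and Anpep 2nd in every library. The lowest Sis value, 341, lay above the highest Anpep value, 277. From Anpep downwards the ranges of all neighbours in this order overlapped. Ranks below Anpep changed between libraries: Lct was 9th in both GFP libraries, 6th and 8th in clone 1, and 4th and 6th in clone 3. The SD of the log2 values over the 6 libraries was largest for Lct at 1.53, with a 21.7-fold range, and smallest for Dpp4 at 0.20, with a 1.47-fold range. The summed level of the 9 genes was 1477 and 667 RPKM in GFP, 1394 and 682 in clone 1 and 1534.5 and 769 in clone 3. The sum differed more between passages than between lines at the same passage.

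**Figure D1:**
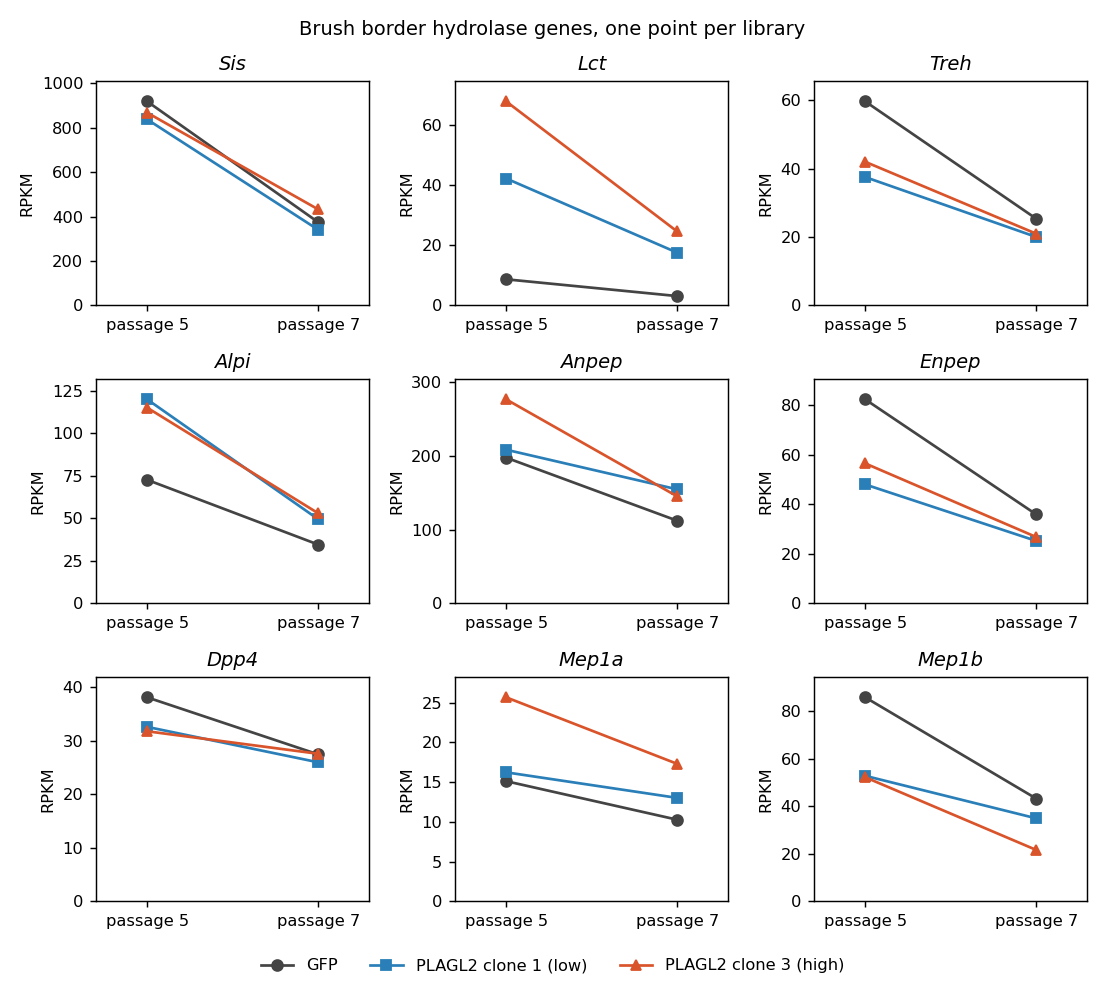
RPKM of each hydrolase gene (vertical axes, from 0) in the 6 libraries, with a line joining passage 5 to passage 7 of the same enteroid line. Every line falls to the right, and the lines stand farthest apart for Lct, at 8.70 to 67.8 RPKM at passage 5.

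Between passage 5 and passage 7, all 9 hydrolase genes fell. Lct, Sis, Alpi, Enpep and Treh fell most, to between 0.360 and 0.534 times their passage 5 level in each line, and Mep1a and Dpp4 fell least. In limma-trend on log2(RPKM + 0.5), with line as a term, 9 of 9 passed an adjusted p of 0.05, all lower. Of all 16314 genes tested 12.1% passed and 5.3% were lower, 1111 genes higher and 864 lower, or 771 and 888 with quantile normalization. The median log2 change of the 9 was -1.03, against 0.09 for all genes tested.

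Among the disaccharidases, Lct fell by 1.34 on the log2 scale (SE 0.05, adjusted p = 0.0095). The passage 5 level was 2.78, 2.40 and 2.76 times that at passage 7 in GFP, clone 1 and clone 3. Sis fell by 1.20 (SE 0.08, adjusted p = 0.0109) and Treh by 1.03 (SE 0.07, adjusted p = 0.0131). The phosphatase gene Alpi fell by 1.15 (SE 0.05, adjusted p = 0.0099). The aminopeptidase genes differed in size: Enpep fell by 1.05 (SE 0.06, adjusted p = 0.0108) and Anpep by 0.72 (SE 0.11, adjusted p = 0.0297). Mep1b fell by 0.94 (SE 0.13, adjusted p = 0.0284), Mep1a by 0.47 (SE 0.07, adjusted p = 0.0286) and Dpp4 by 0.33 (SE 0.06, adjusted p = 0.0427).

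All 9 genes were lower at passage 7 in all 3 lines, which held for 17.9% of all genes tested. For 7 of the 9, all but Lct and Mep1a, the 3 passage 7 libraries lay below the 3 passage 5 libraries, which held for 10.7% of all genes tested. The fit has 2 residual degrees of freedom. Without either GFP library or either clone 1 library, limma-trend called 0 of the 9 and 0 of all genes. All 9 were still at an unadjusted limma-trend p under 0.05, the highest 0.0204. So were 3509 to 3654 of the 16070 to 16161 genes tested in these fits. Without either clone 3 library limma-trend called 5 of the 9 and 730 to 762 of all genes. Without the line term it called 4 (Alpi, Sis, Treh and Enpep), where 8.61% of all genes were called.

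The other enzymes of the brush border mostly moved the same way between passages. Of 18 listed, 14 were tested, and 8 of the 14 fell and 0 rose, with a median log2 change of -0.85 (3 without the line term). Mgam, which encodes maltase-glucoamylase, was the highest of them at 520.0 and 311 RPKM in GFP, 442 and 270.4 in clone 1 and 472 and 272 in clone 3. It fell by 0.75 (SE 0.04, adjusted p = 0.0101). Naaladl1, a peptidase, fell by 1.03 (adjusted p = 0.0133) and Mme, which encodes neprilysin, by 0.95 (adjusted p = 0.0133). Tmprss15, which encodes enteropeptidase, was listed at 0 in 5 libraries and at 0.0174 RPKM in the other.

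Of 20 other genes of absorptive enterocytes, 19 fell and 0 rose, with a median of -0.99. They included the fructose transporter gene Slc2a5, which fell by 1.88, and the glucose transporter gene Slc2a2, which fell by 1.47 (adjusted p = 0.0051 each). Of 16 tested genes of brush border structure, 10 fell, with a median of -0.42. Cobl, an actin nucleator, fell by 0.79 (adjusted p = 0.0105) and Vil1, which encodes villin, by 0.39 (adjusted p = 0.0356). Vil1 was at 252 and 200 RPKM in GFP, 253 and 208 in clone 1 and 289 and 196 in clone 3. Per 100 RPKM of Vil1, 8 of the 9 hydrolase genes were lower at passage 7 in each line, and the size of the difference ranged widely. Sis stood at 365 and 188 in GFP, 330 and 164 in clone 1 and 299.9 and 220 in clone 3. Mep1a differed little, at 6.01 and 5.15 in GFP, 6.41 and 6.26 in clone 1 and 8.88 and 8.82 in clone 3. Dpp4 was the exception, at 15.1 and 13.7 in GFP and 12.9 and 12.5 in clone 1 but at 11.0 and 14.0 in clone 3, where it was higher at passage 7. These ratios were not tested. Of 8 genes that act in delivery to the apical membrane, 2 fell: Anxa13 by 0.55 (adjusted p = 0.0109) and Rab8a by 0.24 (adjusted p = 0.0339).

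Transcription factors that act on enterocyte genes showed no shared shift, with a median of -0.02 over 17 tested. Of these, 3 fell. Creb3l3, a membrane-bound factor of lipid metabolism, fell by 1.32 (SE 0.03, adjusted p = 0.0051) from 61.6 to 24.2 RPKM in GFP, 68.6 to 26.9 in clone 1 and 65.6 to 26.4 in clone 3. Maf fell by 0.66 (adjusted p = 0.0269) and Hnf4g by 0.64 (adjusted p = 0.0101). Hnf4a, the highest of the list at 257 to 290.4 RPKM, had a log2 change of -0.01 (adjusted p = 0.856).

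Markers of other cell types moved with passage in these bulk libraries, in which fewer cells of a type and less RNA per cell cannot be told apart. All 5 stem cell genes rose, with a median of 0.61, and their summed level went from 1036 to 1360 RPKM in GFP, 1144 to 1826 in clone 1 and 1089 to 1793 in clone 3. Olfm4, a stem cell marker, rose by 0.61 (SE 0.09, adjusted p = 0.0291). Of 5 cell cycle genes 3 rose, Mki67 by 0.33, Mcm2 by 0.32 and Top2a by 0.40. Of 6 enteroendocrine genes 4 rose, Cck by 0.78 most, and of 4 tested tuft cell genes 2 rose, Trpm5 by 0.65 and Pou2f3 by 0.50. Of 5 Paneth cell genes 1 rose, Mmp7 by 0.32, and of 7 goblet cell genes 2 fell, Zg16 by 1.51 and Clca1 by 1.07. Vim, a mesenchymal gene, rose by 0.49. Without the filter on low values 0 of the 5 stem cell genes and 1 of the enteroendocrine genes passed, and the counts of all these lists were 0 without any 1 GFP or clone 1 library, as for the hydrolases. Mitochondrially encoded genes took 10.7% to 11.2% of the RPKM total at passage 5 and 12.2% to 13.0% at passage 7. The part of these shifts in the fall of the hydrolases was not tested, and passage cannot be told apart from the day of harvest or from depth.

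**Figure D2:**
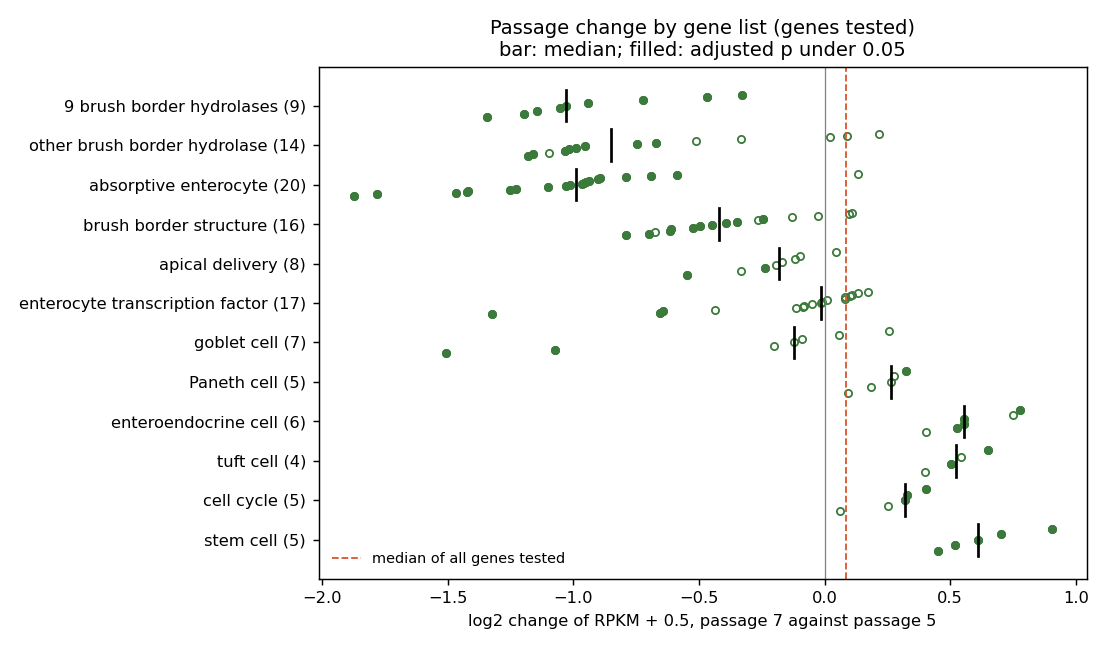
Log2 change of RPKM + 0.5 from passage 5 to passage 7 (horizontal axis) for each tested gene of 12 lists, 1 point a gene, filled where adjusted p was under 0.05, with a bar at each list's median and a dashed line at the median of all genes, 0.09. The 9 hydrolases lie between -1.34 and -0.33, beside the absorptive enterocyte genes, and the stem cell genes lie between 0.45 and 0.91.

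Against GFP, the lactase gene was the hydrolase gene that stood out in the PLAGL2 clones. At the same passage it was 4.85 and 5.62 times the GFP level in clone 1 (passages 5 and 7) and 7.80 and 7.87 times in clone 3. Alpi, Anpep and Mep1a were above GFP in both clones at both passages, by at most 1.70-fold, and Enpep, Treh and Mep1b below it, at 0.5005 times its level or more. In the fits without a term for passage, in which the passage difference stays in the spread, limma-trend called 0 of the 9 genes in any of the 4 comparisons of lines. At an unadjusted p under 0.05 the count was 1 of 9 for both clones against GFP (Lct), 1 for clone 1 (Lct), 2 for clone 3 (Lct and Mep1a) and 0 for clone 3 against clone 1. The like counts among all 16314 genes tested were 970, 644, 1474 and 837. After adjustment, 0.00613%, 0.0306%, 0.349% and 0.0245% of all genes tested were called in these 4 comparisons.

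The letters of the labels mark the passages, so each clone library has a GFP library of the same passage, and the fit with passage as a replicate block uses that pairing. With this block, Lct rose in clone 1, as 1 of 9 called where 0.0736% of all genes were called. In clone 3, Lct, Alpi and Mep1a rose, 3 of 9, where 2.1% of all genes were called and 1.22% were higher. For both clones against GFP with the block 0 of 9 were called, against 0.0123% of all genes. For clone 3 against clone 1 it was 0 of 9, against 0.288%. At an unadjusted limma-trend p under 0.05 with the block, 6 of 9 passed for both clones, as did 1865 of all 16314 genes. For clone 3 against clone 1, 2 of 9 did so, as did 1920 of all genes.

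The log2 change of Lct was 2.27 in clone 1, with SE 0.70 and adjusted p = 0.995 without the block and SE 0.07 and adjusted p = 0.00558 with it. In clone 3 it was 2.84, with adjusted p = 0.264 without the block and 0.00177 with it. Over both clones it was 2.55, with adjusted p = 0.477 without the block and 0.0873 with it. Clone 3, labelled high for PLAGL2, had 0.58 more than clone 1, with adjusted p = 0.0879 with the block. Each call for Lct rests on few libraries. With the block, the clone 1 value was 2.19 to 2.34 with any 1 library left out, and passed without either clone 3 library only, at adjusted p = 0.0339 without passage 5 and 0.0312 without passage 7. It did not pass without GFP passage 5 (0.229), GFP passage 7 (0.177), clone 1 passage 5 (0.105) or clone 1 passage 7 (0.0895). The clone 3 value was 2.77 to 2.92 and passed without any clone library, with adjusted p of 0.0165 to 0.0334, but not without GFP passage 5 (0.0793) or GFP passage 7 (0.0669).

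Alpi had a log2 change of 0.63 in clone 3, with adjusted p = 0.892 without the block and 0.0325 with it. In clone 1 the change was 0.62, with adjusted p = 0.1002 with the block. The phosphatase gene thus stood at nearly the same level in both clones, 84.8 ± 49.8 RPKM in clone 1 and 84.1 ± 43.9 in clone 3 (SD over the passages, n = 2). Mep1a had a log2 change of 0.73 in clone 3, with adjusted p = 0.462 without the block and 0.0369 with it, and of 0.21 in clone 1. Its difference between clones was 0.52, with adjusted p = 0.147 with the block. With any 1 of the 6 libraries left out, neither gene passed in clone 3: adjusted p was 0.0661 to 0.252 for Alpi and 0.0705 to 0.263 for Mep1a.

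Of the genes that lay below GFP, none passed the threshold in either fit. Enpep had log2 changes of -0.64 in clone 1 and -0.48 in clone 3, with adjusted p of 0.133 and 0.0639 with the block. Mep1b had -0.50 and -0.85, with 0.465 and 0.0928, and Treh -0.50 and -0.38, with 0.258 and 0.126. All 3 lay below GFP in 4 of 4 comparisons at the same passage, which held for 17.1% of all genes tested. Alpi, Anpep, Lct and Mep1a lay above GFP in 4 of 4, which held for 19.3%. All 4 PLAGL2 libraries lay above both GFP libraries for Lct only, and 7.96% of all genes did so.

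Sis and Dpp4 had the log2 changes nearest to 0 in both clones, and Anpep lay above GFP without passing. Sis had a log2 change of -0.13 in clone 1 and 0.06 in clone 3, with 95% intervals without the block of -1.72 to 1.45 and from -1.52 to 1.65. With the block, which takes out the passage difference, the intervals of Sis were -0.38 to 0.11 in clone 1 and -0.19 to 0.31 in clone 3. Dpp4 had -0.15 and -0.13, with blocked intervals of -0.35 to 0.0493 and of -0.33 to 0.0733. Anpep had 0.27 and 0.43, with blocked intervals of -0.0770 to 0.62 and of 0.0814 to 0.77. None passed after adjustment in either fit.

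**Figure D3:**
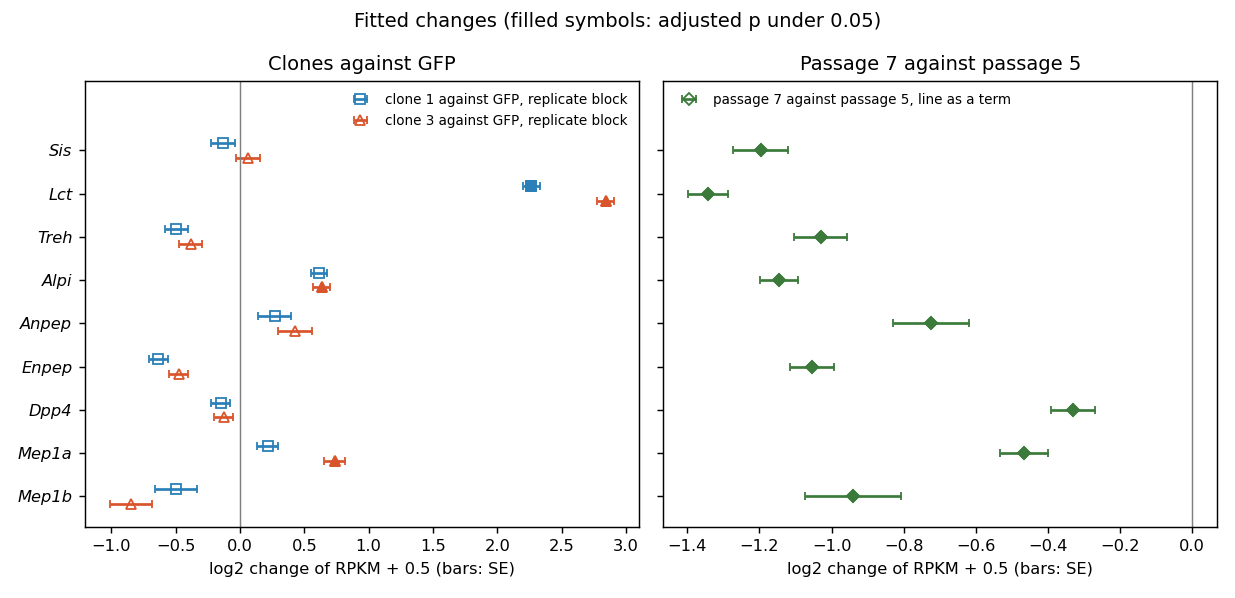
Log2 change of RPKM + 0.5 with its SE for each hydrolase gene, in clone 1 and clone 3 against GFP with passage as a block (left) and at passage 7 against passage 5 with line as a term (right), filled where adjusted p was under 0.05. Lct stands apart on the left at 2.27 and 2.84, and all 9 genes lie below 0 on the right.

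Set against Sis in the same library, Lct differed little between passages in GFP and clone 1 and differed widely between GFP and the clones. For each 100 RPKM of Sis there were 0.948 and 0.835 RPKM of Lct in GFP at passages 5 and 7. There were 5.05 and 5.16 in clone 1 and 7.83 and 5.69 in clone 3, so that all PLAGL2 libraries lay above both GFP libraries. For Alpi the ratio was 7.92 and 9.25 in GFP, 14.3 and 14.5 in clone 1 and 13.3 and 12.3 in clone 3, again without overlap. For Enpep it was 8.97 and 9.59 in GFP, 5.73 and 7.40 in clone 1 and 6.51 and 6.19 in clone 3, with GFP above all others. Treh likewise stood at 6.50 and 6.78 in GFP and at 4.49 to 5.88 in the clones. For Mep1b the groups overlapped, with 9.36 and 11.6 in GFP, 6.32 and 10.3 in clone 1 and 6.03 and 5.01 in clone 3. Of the 8 genes, Lct and Alpi had all 4 PLAGL2 libraries above both GFP libraries, as did 1.66% of the 16313 genes tested other than Sis, and Enpep and Treh had all 4 below, as did 0.656%. These shares are no like background, since for a gene that does not fall with Sis between passages the ratio differs between passages through Sis alone. The ratios are a description and were not tested.

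**Figure D4:**
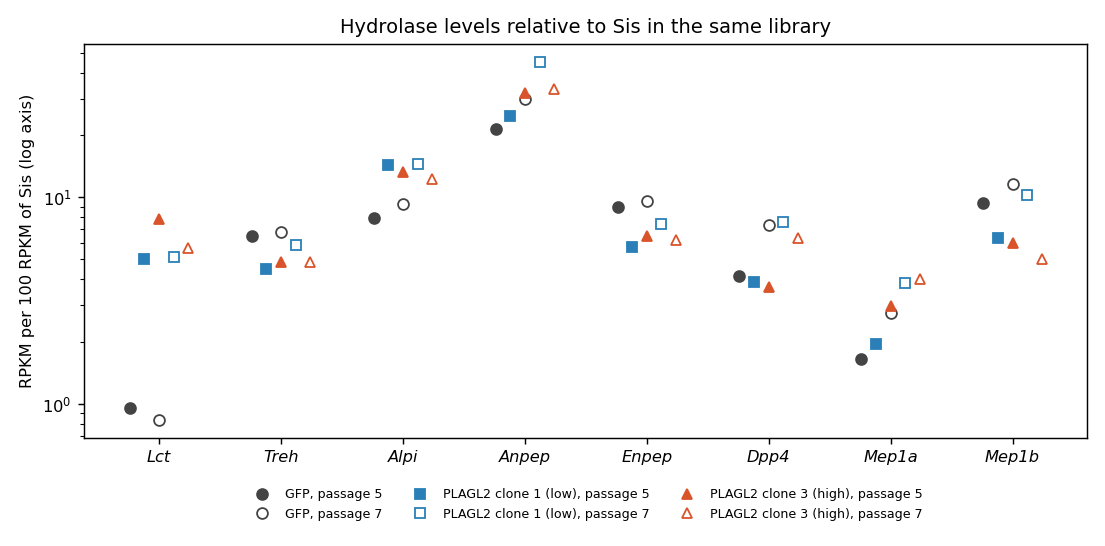
RPKM of each other hydrolase gene per 100 RPKM of Sis in the same library (log axis), with filled symbols for passage 5 and open symbols for passage 7. Lct lies at 0.835 to 0.948 in GFP and at 5.05 to 7.83 in the PLAGL2 clones.

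In the transcript table, lactase had the same order of libraries. Its coding transcript Lct-001 held 88.4% to 100% of the transcript RPKM of the gene, the rest being a retained-intron form, and stood at 6.42 and 2.12 RPKM in GFP, 27.7 and 10.6 in clone 1 and 44.5 and 15.1 in clone 3. Of Sis, 3 transcripts were listed, and the coding form Sis-201 held 48.1% to 54.5% in all 6 libraries.

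The remaining brush border enzymes did not share the direction of Lct in the clones. Of 14 tested, 12 had a log2 change below 0 in clone 3, with a median of -0.48 against 0.01 for all genes, and 13 in clone 1, with a median of -0.34. Without the block 0 were called in either clone. With it Enpp7 and Mme fell in clone 3, named here after their values were seen. Enpp7, which encodes alkaline sphingomyelinase, was at 16.3 and 4.67 RPKM in GFP, 1.16 and 0.434 in clone 1 and 1.77 and 0.844 in clone 3, a log2 change in clone 3 of -2.42 (adjusted p = 0.0378 with the block, 0.287 without). Mme was at 57.2 and 25.7 RPKM in GFP, 36.3 and 20.2 in clone 1 and 30.05 and 16.0 in clone 3, a change of -0.79 (adjusted p = 0.0372 with the block, 0.800 without).

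Genes that mark enterocytes of suckling mice were listed because lactase belongs to that stage. All 5 had a log2 change above 0 in each clone, with medians of 0.40 in clone 1 and 0.26 in clone 3, and 0 were called without the block. Glb1, a lysosomal galactosidase, was at 33.7 and 37.2 RPKM in GFP, 38.4 and 41.5 in clone 1 and 59.2 and 62.8 in clone 3. With the block it rose in clone 3 by 0.78 (adjusted p = 0.00995, and 0.0603 without it). Fcgrt, which encodes the neonatal Fc receptor, was at 10.2 and 6.35 RPKM in GFP, 15.9 and 7.23 in clone 1 and 16.8 and 5.57 in clone 3, and overlapped between lines. It fell by 1.08 from passage 5 to passage 7 (adjusted p = 0.0337).

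Absorptive enterocyte genes as a list had a median log2 change of 0.05 in clone 1 and -0.09 in clone 3, and 0 of 20 were called without the block in either. With it, 1 rose in clone 3 (Slc2a2, by 0.41) and 2 fell (Krt20 and Rbp2, by 0.49 and 1.09), named after their values were seen. Of the transcription factors 0 of 17 were called in either clone with or without the block. Hnf4a and Isx, the highest of them, were at 257 to 290.4 and 110 to 232 RPKM. Of the structure genes 0 of 16 were called in either fit. Of the 8 apical delivery genes 0 were called in either clone without the block. With it Anxa13 fell in clone 3 by 0.58 (adjusted p = 0.0185, and 0.704 without it).

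Some goblet cell markers were called lower in clone 3 than in GFP with and without the block, and some Paneth cell markers with it only. No stem or enteroendocrine cell marker passed the test in either clone. Of 7 goblet cell genes, 3 fell in clone 3 without the block, Fcgbp by 1.76 (adjusted p = 0.0144), Agr2 by 1.17 (0.0172) and Muc2 by 1.87 (0.0251), and 6 fell with it. Without the block, 0 were called when GFP passage 5 or any 1 clone library was left out. In clone 1, 0 of the 7 goblet cell genes were called without the block. With it 2 of the 7 fell in clone 1, where 0.0736% of all genes were called. The summed level of the 7 was 1711 and 1258 RPKM in GFP, 985 and 891 in clone 1 and 483 and 523 in clone 3. The summed level of 5 Paneth cell genes was 2758 and 2924 RPKM in GFP, 2488 and 2721 in clone 1 and 1340 and 1676 in clone 3. In clone 3, 0 of the 5 were called without the block and 3 fell with it. Of all genes tested, 0.349% were called in clone 3 without the block and 2.1% with it. Of 6 enteroendocrine cell genes 0 were called in either clone with or without the block, and their sum was 237 and 327 RPKM in GFP, 232 and 318 in clone 1 and 277 and 487 in clone 3. Of 5 stem cell genes 0 were likewise called, at a sum of 1036 and 1360 in GFP, 1144 and 1826 in clone 1 and 1089 and 1793 in clone 3. At an unadjusted limma-trend p under 0.05, 0 genes of both lists passed without the block. With it, 1 of the 6 and 3 of the 5 passed in clone 1, and 3 of the 6 and 2 of the 5 in clone 3. Of all 16314 genes tested, 1561 passed in this way in clone 1 and 3177 in clone 3. The summed level of 20 absorptive enterocyte genes was 9648 and 4521 in GFP, 10914 and 4953 in clone 1 and 9101 and 4550 in clone 3. The part of these shifts in the clone differences of Lct, Alpi and Mep1a was not tested.

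Closest profiles were taken as the smallest root mean square difference in log2(RPKM + 0.5), centred on each gene's own mean, over the 6 libraries. Treh and Enpep were each other's closest gene among all 16314 (0.06). The closest to Sis was Gsta1 (0.06), to Alpi Hcn3 (0.05), to Dpp4 Frmd8 (0.03), to Mep1a Gatsl2 (0.10), to Mep1b Cyp2c38 (0.09) and to Anpep Spsb1 (0.11). Lct had no such near neighbour: its closest, Hif3a, lay at 0.43, with 3.30 and 2.68 RPKM in GFP, 15.3 and 8.58 in clone 1 and 31.6 and 17.2 in clone 3. The difference is not scaled to a gene's spread, which among the 9 was largest for Lct (SD 1.53) and smallest for Dpp4 (SD 0.20). The mean profile of the 9 genes was closest to those of Dusp5 (0.03), Exoc3l4, Abcg5, Abcg8 and Igsf3 (0.08).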

How the data were processed

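Libraries were made with standard Illumina protocols from Trizol RNA after an RNeasy clean-up, per the labels' protocols. The authors deposited RPKM values per gene and per transcript, 1 column a library. Per the submitters' processing notes, reads were handled on mm10 with edgeR, featureCounts, Subread and STAR, without roles or versions. Of 41383 gene entries, 614 repeats were dropped.

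Because RPKM are not counts, log2(RPKM + 0.5) was tested with limma-trend (limma 3.58.1, R 4.3.3), two-sided, with Benjamini-Hochberg adjustment over the 16314 genes that reached an RPKM of 0.5 in 2 or more libraries and a threshold of 0.05. The pseudocount understates changes of low genes. Both clones against GFP had 4 residual degrees of freedom, single lines 3 and passage, with line as a term, 2. The alternatives were pseudocounts of 0.1 and 1, no filter, quantile normalization, each library left out, and the replicate block (or no line term). The script was tested on simulated data. Intervals are 95% intervals of the log2 change.

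Same-letter libraries pair by the labels, which give letter A to passage 5 and B to passage 7. Deviations of same-letter libraries from their line means correlated across the 16314 genes at 0.32 for GFP and clone 1, 0.28 for GFP and clone 3 and 0.28 for clones 1 and 3. Genes are not independent replicates.

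Depth was recovered from the steps of the RPKM values: 67.8% of 25468 nonzero genes gave whole reads in every library, to a tolerance of 0.02 read, with GENCODE M21 lengths, and 32.2% with a length fitted to their values. A listed 0 allows up to 3 reads, an RPKM of 0.173 to 0.218 at 1 kb, counting error only. Coordinates are those of GENCODE M21 on mm10, and promoters those of RefSeq.

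The 9 genes and the lists were chosen with earlier results of these data known. Genes named beside the 9 were, per list and comparison, those called where at most 4 were called and otherwise the 4 of lowest p, the 2 of highest mean RPKM in each list, Plagl2, Vil1, Epcam and the closest profiles. Others are said to be named after their values were seen. Some genes that this rule or a list would name are not reported here.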

Additional observations from a re-analysis of the deposited data

How the results depend on the processing

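Between passages, all 9 genes were called with pseudocounts of 0.1 and 1 and with quantile normalization. Without a filter 5 passed, without the line term 4, and with 1 library left out 0 to 5. The fits that left out a library kept 1 residual degree of freedom, and the log2 change of each gene stayed below 0 in all of them. With the replicate block 1 of the 9 was called in clone 1 and 3 in clone 3, where the fits without it called 0; it changed no other count for the 9 genes between lines. Leaving out 1 library without the block leaves a line with a single passage, so that the passage difference enters the comparison of lines. For both clones against GFP, log2 changes that took the opposite sign ranged, over these fits, for Sis -0.68 to 0.61, Treh -1.05 to 0.17, Dpp4 -0.37 to 0.0945, Enpep -1.15 to 0.0351 and Anpep -0.0587 to 0.76. For clone 1 against GFP, log2 changes that took the opposite sign ranged, over these fits, for Sis -0.78 to 0.51, Treh -1.11 to 0.11, Dpp4 -0.38 to 0.0825, Mep1a -0.0544 to 0.48, Anpep -0.14 to 0.68 and Alpi -0.0189 to 1.25. For clone 3 against GFP, log2 changes that took the opposite sign ranged, over these fits, for Treh -0.99 to 0.22, Dpp4 -0.36 to 0.11, Enpep -1.07 to 0.11, Sis -0.58 to 0.71 and Anpep -0.0364 to 0.89. For clone 3 against clone 1, log2 changes that took the opposite sign ranged, over these fits, for Alpi -0.61 to 0.65, Lct -0.15 to 1.299, Sis -0.45 to 0.84, Anpep -0.31 to 0.62, Treh -0.38 to 0.60, Dpp4 -0.14 to 0.18, Enpep -0.37 to 0.69 and Mep1b -0.97 to 0.28. Sis for both clones against GFP was 0.00549 with quantile normalization. With the replicate block, Sis in clone 3 ranged from -0.0826 to 0.21 over the fits without 1 library, which were added after seeing the data. No other direction of the 9 genes in the comparisons of lines or passages turned. Over all genes tested, the calls between passages went from 1975 to 629 without a filter and to 0 to 762 with 1 library left out, those for clone 3 against GFP from 57 to 342 with the block and to 2 to 11 with 1 library left out, and those for clone 1 against GFP from 5 to 12 and to 0, with 456 to 692 genes at an unadjusted limma-trend p under 0.05. Depth gave at least 276 reads for each of the 9 genes in every library.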

Other observations

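After Hif3a, the named protein-coding genes with profiles closest to Lct were Mamdc4 and Aspg, which were named after their values were seen. Mamdc4, which encodes an endosomal glycoprotein of the suckling intestine in the rat, was at 2.98 and 2.82 RPKM in GFP at passages 5 and 7, at 10.9 and 7.78 in clone 1 and at 63.2 and 15.1 in clone 3. Its root mean square difference from Lct was 0.66. Aspg, an asparaginase gene, was at 0.970 and 0.611 RPKM in GFP, 6.34 and 4.34 in clone 1 and 17.9 and 15.3 in clone 3, at a difference of 0.67. Ass1, which encodes argininosuccinate synthase and is on the list of suckling-type genes, was at 0.522 and 1.13 RPKM in GFP, 2.93 and 2.16 in clone 1 and 4.40 and 2.59 in clone 3. Its log2 change was 1.23 in clone 1 and 1.59 in clone 3, with limma-trend adjusted p of 0.886 and 0.197. All 4 PLAGL2 libraries lay above both GFP libraries, which held for 7.96% of all genes tested. Ass1 was likewise named after its values were seen.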
